A study of Mus musculus with 16 samples.

Results

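The 4 unexposed libraries of the series were taken as its baseline transcriptome of mouse fetal cortex. They were chosen by their labels: male and female fetuses whose treatment is given as Control, meaning neither of the paternal, maternal and dual ethanol exposures of the other libraries. They make up 4 of the 16 libraries of the series, as 2 from male control and 2 from female control fetuses, all collected at gestational day 16. The other 12 libraries come from fetuses with paternal, maternal or dual exposure, and are used here only for the spread between their replicates and in 1 alternative fit. Total RNA of each cortex was sequenced after preparation with a TruSeq Standard Total RNA kit, and the authors deposited read counts per gene. The strain, and whether replicates came from separate animals or litters, are not stated in the labels, so every spread and p-value below measures the difference between these libraries and may be partly technical.

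At this stage the mouse cortex is a tissue in the middle of being built. Radial glia, the stem cells that line the ventricle, divide to give intermediate progenitors and neurons, and the young neurons climb along the radial fibres into the cortical plate. Layers form from the inside out, with deep-layer neurons born before upper-layer neurons, while inhibitory interneurons arrive from the ventral forebrain by sideways migration. Oligodendrocytes and astrocytes mostly form later, and blood vessels, microglia and the meninges are already present.

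Levels are given on 2 scales. CPM is the count of a gene per 1000000 counts of its library, and compares one gene between libraries. TPM divides counts by the summed exon length of the gene and scales protein-coding genes to a sum of 1000000 per library, and is used wherever levels of different genes are set side by side. Errors are SDs over the 4 libraries (n = 4) unless stated otherwise. Summed counts were 19966696 and 17775454 in the male control libraries and 33285724 and 33018511 in the female control libraries, so depth and sex went together. A floor of 3 counts corresponded to 0.15 and 0.169 CPM in the male control libraries, and to 0.0901 and 0.0909 CPM in the female control libraries, for counting error only. Of 55359 gene IDs, 14469 reached 1 CPM in every library and 22419 had no count in any. Among the 21877 protein-coding genes, 2204 (10.1%) had a mean of at least 100 TPM, 8085 lay from 10 to 100 TPM, 3699 from 1 to 10 TPM and 3569 below 1 TPM, and 4320 (19.7%) had no count. The median protein-coding gene stood at 7.63 TPM.

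Male control replicate 2 and female control replicate 1 stood apart from the other libraries, in different ways. Male control replicate 2 held 1.35% of its counts on mitochondrial ribosomal RNA and 6.89% on a single ID without a symbol (ENSMUSG00000119584), against at most 0.0590% and 0.165% in the other 3 libraries, so the CPM of its other genes is lower by a common factor. Female control replicate 1 differed from the rest in gene content, with fewer counts on meningeal genes and more on genes of dividing cells, as described with the replicates below. Leaving out male control replicate 2 gave 14555 detected genes, and leaving out female control replicate 1 gave 15021.

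The most abundant named transcripts of the unexposed cortex were those of the cytoskeleton of growing neurons, of the translation machinery and of mitochondria. Named here means with a symbol, and abundant IDs without a symbol are given below. Among named genes the first by CPM was Map1b, a microtubule-associated protein of extending axons. Map1b had 7743 and 7180.2 CPM in the male control libraries, against 7859.6 and 8160.0 CPM in the female control libraries. Its 4 values lay within 1.12-fold of each other once library composition was scaled. Next came mt-Co1, a subunit of cytochrome c oxidase, at 4257 ± 359 CPM, and Eef1a1, the elongation factor that brings aminoacyl-tRNA to the ribosome, at 4175 ± 324 CPM. Sox11, a transcription factor of newborn neurons, came after them by CPM. Sox11 had 4127 and 3858 CPM in the male control libraries, against 5113 and 3067 CPM in the female control libraries, with the highest and the lowest value both in the female control group. Actb, cytoplasmic actin, followed at 4004 ± 432 CPM, and Malat1, a nuclear long non-coding RNA, at 3833 ± 1003 CPM. Malat1 had 4364 and 4928 CPM in male control and 2693 and 3346 CPM in female control libraries. It did not pass the comparison of the sexes given below (edgeR adjusted p 0.488). The rest of the first 20 by CPM included the tubulins Tuba1a, Tubb5 and Tubb2b, and Dpysl3 and Dpysl2, collapsin response mediators of axon guidance. They also included the microtubule proteins Dcx, Map2 and Mapt, mt-Cytb, the translation factors Eif4g2 and Eef2, the dynein heavy chain Dync1h1 and Sox4. The mitochondrial ribosomal RNA mt-Rnr2 completed them through male control replicate 2 alone. It had 342 and 7426 CPM in male control and 77.6 and 9.18 CPM in female control libraries.

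Per length of exon the order changed, and 9 of the first 20 by TPM were also among the first 20 by CPM. Mitochondrially encoded mRNAs led, with mt-Co1 at 13724 ± 906 TPM and mt-Cytb, cytochrome b, at 10919 ± 778 TPM. Tuba1a, the main alpha-tubulin of young neurons, followed at 9494 ± 410.2 TPM, with Eef1a1 at 8329.8 ± 191 TPM and mt-Nd1 at 7844 ± 1201 TPM behind it. Actb (7428 TPM), Tubb2b (6232 TPM), Tubb5 (4434 TPM) and the neuron-specific beta-tubulin Tubb3 (3795 TPM) were close behind, as was Tmsb10 (4057 TPM), a small protein that binds actin monomers. The rest of the 20 were mt-Nd2, Hist1h4h, Stmn1, mt-Nd4, Marcksl1, mt-Nd5, Nnat, Eef2, Tmsb4x and Dpysl2, from 3369.7 to 2728 TPM. Stmn1, which takes microtubules apart, varied little, at 3125 and 3275 TPM in the male control libraries, against 3376 and 3291 TPM in the female control libraries. Nnat, an imprinted gene of young neurons, had 2812 and 2570.4 TPM in the male control libraries, against 3514 and 3121 TPM in the female control libraries. Tubulin, histone and Eef1a1 levels carry an added doubt, since these genes have near-identical copies and how multi-mapping reads were handled is not given in the sources used here.

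**Figure D1:**
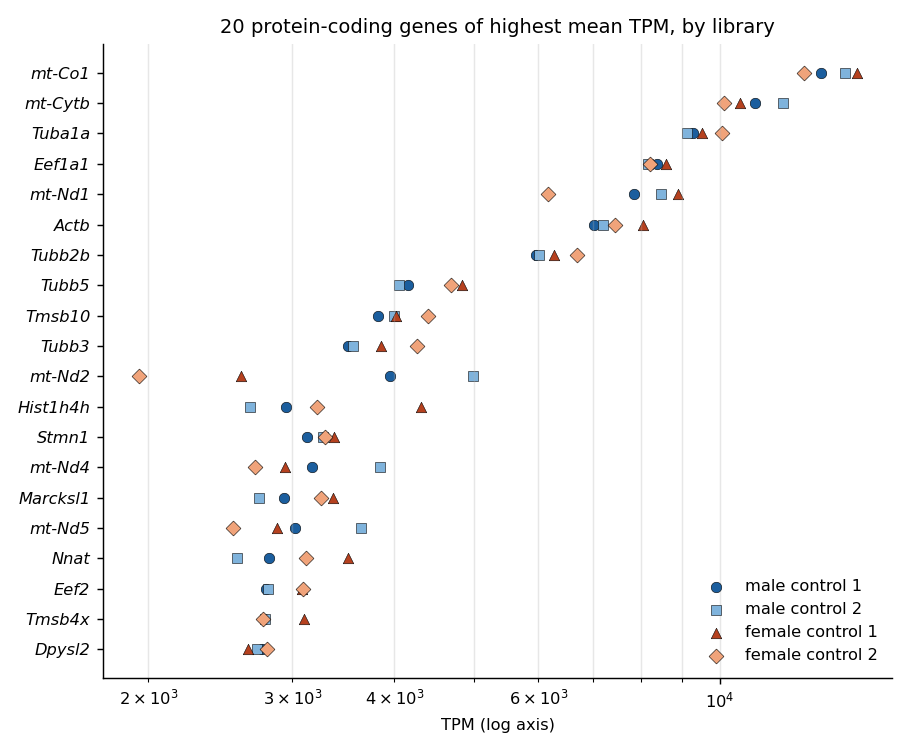
TPM (log axis) of the 20 protein-coding genes of highest mean TPM, 1 row per gene and 1 point per library, with male control in blue and female control in orange. Points of most genes nearly coincide, while mt-Nd2 is spread from low values in female control to high values in male control libraries.

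Mitochondrial mRNAs were uneven among themselves. The 13 genes together held 11343 and 11452 CPM in male control and 11794 and 9874 CPM in female control libraries. A group of 7 averaged from 1655 TPM (mt-Nd6) to 13724 TPM (mt-Co1), whereas mt-Co3, mt-Co2, mt-Atp6, mt-Nd3, mt-Nd4l and mt-Atp8 lay between 8.82 and 44.5 TPM. All 13 are cut from long precursors, and nothing in these counts says how the low ones came about. How multi-mapping reads were handled is not given in the sources used here, and its part in these levels was not tested. mt-Nd2, a subunit of complex I, had 3949 and 4984 TPM in the male control libraries, against 2598 and 1948 TPM in the female control libraries. mt-Nd6, the only one of the 13 encoded on the other strand, had 2026 and 2896 TPM in the male control libraries, against 979 and 718 TPM in the female control libraries. None of the 13 passed the comparison of the sexes given below, and the edgeR adjusted p of mt-Nd2 was 0.488. Exons of mt-Nd6 overlap those of mt-Nd5 on the opposite strand, over a length not given here. Without the strand setting, reads of the shared stretch cannot be told apart, while reads outside it are not affected.

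Long non-coding RNAs after Malat1 included the maternally expressed imprinted transcripts Meg3 and Rian, which lie in one imprinted cluster. Meg3 had 779.9 and 848 CPM in the male control libraries, against 359 and 734 CPM in the female control libraries, with female control replicate 1 below the other 3. Rian had 513 and 508 CPM in male control and 346 and 408 CPM in female control libraries, again with that library lowest. Tug1, a nuclear RNA, and Peg13, an imprinted transcript named for its paternal expression, were steadier at 306 ± 33.2 and 304 ± 21.4 CPM. Miat, a nuclear RNA of neurons and progenitors, averaged 155 ± 24.4 CPM. IDs without a symbol held 1.96% and 8.49% of counts in the male control libraries and 1.99% and 2.29% in the female control libraries. One of them, ENSMUSG00002076161, had 11796 and 10779 CPM in the male control libraries, against 11388 and 13732 CPM in the female control libraries, more than any named gene. Another, ENSMUSG00000118642, had 5571 and 4352 CPM in male control and 7296 and 7532 CPM in female control libraries. Its mean of 6188 CPM lay between those of Map1b and mt-Co1.

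The library labels name cortex, and every listed gene of postmitotic neurons, radial glia, deep and upper layers and interneurons was detected. The same held for dividing cells, Cajal-Retzius cells, pericytes and striatum, so full detection was not particular to cortical neurons and progenitors. Of 539 different genes in 52 lists of cell-type markers, transcription factors, receptors and other groups, 393 reached 1 CPM in every library and 17 had no count at all. Over all protein-coding genes, 58.1% reached 1 CPM in every library. Because whole tissue was sequenced, more cells of a type and more RNA per cell cannot be told apart in any of these sums.

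Genes of postmitotic neurons were among the most abundant. All 16 listed genes reached 1 CPM in every library, and their summed level was 20270.3 and 18647 CPM in male control and 20352 and 20747 CPM in female control libraries. The list's median gene stood at 662 TPM, against 7.63 TPM over all protein-coding genes. Tubb3 had 3507 and 3556 TPM in the male control libraries, against 3850.3 and 4267 TPM in the female control libraries, Stmn1 averaged 3266 ± 105 TPM and Map1b 2432 ± 65.4 TPM. Gap43, the growth-cone protein of extending axons, came next with 1202 and 1253 TPM in the male control libraries, against 996 and 1338 TPM in the female control libraries. Mapt, the axonal tau protein, averaged 1105 ± 143 TPM and Dcx, the microtubule protein of migrating neurons, 1002 ± 103 TPM. Genes of mature synapses and axons were lower in the same list: Snap25, a vesicle fusion protein, averaged 91.7 ± 17.7 TPM, Nefl, the light neurofilament, 73.7 ± 9.96 TPM, and Rbfox3, the source of the NeuN antigen, 58.7 ± 4.54 TPM.

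Radial glial genes had a median of 82 TPM. All 19 of them reached 1 CPM in every library, with sums of 2895 and 2768 CPM in male control and 3098 and 2808 CPM in female control libraries. Fabp7, a fatty-acid binding protein of radial glia, led by a wide margin at 1271 and 1325 TPM in the male control libraries, against 961 and 1135 TPM in the female control libraries. Ptprz1, a receptor phosphatase of the radial fibre, averaged 262 ± 21.6 TPM, the stem-cell factor Sox2 251 ± 41.4 TPM and the intermediate filament Vim 246 ± 36.2 TPM. Pax6, which specifies dorsal progenitors, was lower at 17 ± 3.45 TPM, and the Notch effectors Hes5 and Hes1 averaged 30.1 ± 6.05 and 15.6 ± 2.15 TPM. Hopx, a gene of outer radial glia in other mammals, was the lowest of the list at 8.47 ± 2.41 TPM.

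Intermediate progenitors, which divide away from the ventricle to make neurons, gave sums of 272 and 242 CPM in male control and 407 and 249 CPM in female control libraries over 9 genes. Their 4 highest genes were Insm1 (170.1 ± 30.2 TPM), Neurog2 (79.8 ± 26.8 TPM), Eomes (76.3 ± 18.3 TPM) and Btg2 (49.4 ± 17.8 TPM). Eomes, the factor that defines these cells, had 60.1 and 52.6 CPM in male control and 90.2 and 52.9 CPM in female control libraries. Female control replicate 1 was the highest library for 9 of 9 of these genes. Genes of dividing cells summed to 1768 and 1547 CPM in male control and 2365 and 1569.6 CPM in female control libraries, and again female control replicate 1 was highest for 12 of 12. Ccnd2, a D-type cyclin of dividing cortical progenitors, averaged 438 ± 35.4 TPM, the proliferation antigen Mki67 158 ± 42.1 TPM, the DNA clamp Pcna 158 ± 27.3 TPM and the chromatin protein Hmgb2 151 ± 43.4 TPM.

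Markers of both deep and upper layers were present at similar levels. The 10 deep-layer genes summed to 1842 and 1768 CPM in male control and 2079 and 1722 CPM in female control libraries, and the 11 upper-layer genes to 2347 and 2246 CPM in male control and 2289 and 2296 CPM in female control libraries. The deep-layer list had a median of 86.6 TPM and the upper-layer list one of 82.7 TPM. Bcl11b, which specifies neurons that project out of the cortex, led the deep-layer genes at 439 ± 32.9 TPM. Tbr1, the determinant of layer 6, had 307 and 321 TPM in the male control libraries, against 379.8 and 306 TPM in the female control libraries, and Tle4 and Ldb2 averaged 150.2 ± 12.4 and 97.6 ± 10.2 TPM. Fezf2, a master regulator of subcerebral projection neurons, stood at 83.9 ± 13 TPM. Among upper-layer genes, Pou3f3 and Pou3f2, POU factors of upper-layer neurons and their progenitors, averaged 329 ± 21.1 and 227 ± 38.1 TPM, and Lmo4 158 ± 22.6 TPM.

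Subplate and Cajal-Retzius neurons are the first-born cells below and above the cortical plate. The 5 subplate genes summed to 80.9 ± 5.48 CPM, and the 7 Cajal-Retzius genes to 674 ± 62.1 CPM. Nr4a2, a nuclear receptor of the subplate, averaged 52.1 ± 5.53 TPM, Nxph4 31.8 ± 4.11 TPM and Lpar1 25.5 ± 4.24 TPM, while Ccn2, a marker of the mature subplate, averaged 10.2 ± 3.66 TPM. Cplx3, another subplate gene, had at most 0.18 CPM and no count in female control replicate 2. Reln, the secreted protein by which Cajal-Retzius cells direct layering, had 560.0 and 530.3 CPM in the male control libraries, against 586 and 650.0 CPM in the female control libraries. Calb2, Ndnf and Lhx5 averaged 48.1 ± 14.1, 19.4 ± 4.05 and 12.2 ± 1.81 TPM.

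Inhibitory interneuron genes were all present. The 16 genes summed to 1299 and 1190.2 CPM in male control and 1489 and 1284 CPM in female control libraries, with a median of 101 TPM. Sst, the neuropeptide somatostatin, led at 341 and 373 TPM in the male control libraries, against 381 and 472 TPM in the female control libraries, and Npy, neuropeptide Y, was more variable at 243 and 269.8 TPM in the male control libraries, against 138 and 326 TPM in the female control libraries. Both mRNAs are short, and their mean levels were 56.8 CPM for Sst and 27.6 CPM for Npy. Dlx1, a homeobox gene of ventral forebrain progenitors and migrating interneurons, averaged 203 ± 28.6 TPM, and Dlx6os1, transcribed over the Dlx5 and Dlx6 locus, 178 ± 30.1 TPM. Gad1 and Gad2 make GABA, and Gad1 stood below Gad2 in 4 of 4 libraries with a TPM ratio of 0.642 (range 0.535 to 0.737).

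The 4 highest genes of the oligodendrocyte list and of the astrocyte list lay above the median protein-coding gene of 7.63 TPM, and the late genes Mag and Gfap lay below it. For the oligodendrocyte lineage, Olig1 averaged 50.2 ± 11.8 TPM, Olig2 37 ± 3.52 TPM and Pdgfra, a receptor of precursors, 30.9 ± 9.86 TPM, whereas the myelin protein gene Mag averaged 0.74 ± 0.26 TPM. Mog, a late myelin gene, went against that order at 54.5 and 52.7 TPM in the male control libraries, against 33.8 and 45.6 TPM in the female control libraries. In the astrocyte list Apoe and Slc1a2 averaged 168 ± 62.3 and 94.4 ± 5.92 TPM, followed by Gja1 (41.6 TPM) and Aldh1l1 (40.4 TPM), genes that radial glia and other cells also use. The astrocyte filament Gfap had 1.4 and 1.13 CPM in male control and 0.12 and 1.18 CPM in female control libraries.

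Microglia, vessels, meninges and blood were all represented. C1qa and C1qb, complement genes of microglia, averaged 26.3 ± 6.39 and 22.4 ± 2.47 TPM, behind Sall1 (57.7 ± 15.3 TPM), which other cells of the fetal brain also express. Cldn5, the endothelial tight-junction protein, had 154 and 136 TPM in the male control libraries, against 87.6 and 165 TPM in the female control libraries, and Slc2a1, the glucose transporter of the blood-brain barrier, averaged 86.9 ± 8.45 TPM, with Cdh5 at 55.8 and Mfsd2a at 48.7 TPM. Among pericyte genes Rgs5, Vtn, Pdgfrb and Notch3 averaged 117, 78.9, 39.6 and 29.7 TPM. Meningeal genes summed to 889 and 795 CPM in male control and 294 and 726 CPM in female control libraries, so that 3 libraries lay together and female control replicate 1 far below. Without it the mean sum was 803 CPM, against 676 ± 264 CPM over all 4. Col1a1, a fibrous collagen of the meninges, had 133 and 122 CPM in male control and 17.6 and 106 CPM in female control libraries, and Fn1, fibronectin, had 316 and 271 CPM in male control and 199 and 268 CPM in female control libraries. The collagens Col3a1 and Col1a2 averaged 60.3 ± 31.1 and 44.1 ± 24.8 TPM.

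Blood left adult-type globin RNA. Hbb-bs, an adult beta-globin, had 2715 and 2938 TPM in the male control libraries, against 1775 and 2349 TPM in the female control libraries, and Hba-a1, Hbb-bt and Hba-a2 averaged 881 ± 176, 546 ± 35.9 and 279 ± 54.8 TPM, with the caution that these pairs are near-identical copies. The embryonic globin gene Hbb-y had 1.002 and 0.45 CPM in male control and 8.59 and 0.666 CPM in female control libraries, and Hba-x, embryonic alpha-globin, had 0.651 and 0.45 CPM in male control and 4.09 and 0.787 CPM in female control libraries. For both of these the highest value was that of female control replicate 1. Hbb-bt exceeded Hbb-y in 4 of 4 libraries, from 8.24-fold in female control replicate 1 to 133-fold in male control replicate 2. The mean log2 ratio was 5.77, and 6.68 without female control replicate 1.

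Marker lists of neighbouring brain regions gave unequal sums. Striatal genes were present in all 4 libraries, with sums of 825 and 799 CPM in male control and 915 and 810.2 CPM in female control libraries. Meis2 led at 224 ± 14.1 TPM, although it also marks other forebrain cells, followed by Isl1 (50.5 ± 4.54 TPM), Ebf1 (45.4 ± 4.91 TPM) and Zfp503 (40.9 ± 6.33 TPM). The dopamine receptors Drd1 and Drd2, of striatal projection neurons, averaged 28.4 ± 2.41 and 18.3 ± 3.52 TPM. Thalamic genes summed to 43.6 and 54.7 CPM in male control and 49.5 and 108 CPM in female control libraries, and the high value of female control replicate 2 came mainly from Tcf7l2, a factor of thalamic neurons, which had 22.4 and 33.1 CPM in male control and 24.4 and 71.8 CPM in female control libraries. The next thalamic genes, Barhl2, Lhx9 and Gbx2, averaged 10.9 ± 1.2, 8.56 ± 2.55 and 5.66 ± 0.816 TPM. Choroid plexus genes summed to 38.8 and 103 CPM in male control and 18.1 and 58.5 CPM in female control libraries, and Ttr, the thyroid hormone carrier, was the most variable of them at 2.3 and 60.4 CPM in male control and 0.18 and 23.5 CPM in female control libraries. Enpp2, Otx2 and Aqp1 averaged 19, 6.22 and 3.84 TPM. Genes of the hippocampus and cortical hem, which border the cortex, were led by Zbtb20 (92.8 ± 12.1 TPM), Prox1 (30.9 ± 5.63 TPM), Rspo3 (18.3 ± 2.69 TPM) and Wnt2b (4.88 ± 1.66 TPM). Hypothalamic genes summed to 33.8 ± 5.7 CPM, and 3 of 8 reached 1 CPM in every library. Nkx2-1, Otp, Avp and Sim1 were highest at 37.2, 10.2, 5.18 and 3.09 TPM. Midbrain and hindbrain genes summed to 2.3 ± 0.353 CPM, and Th was the 1 of 12 that reached 1 CPM in every library, ahead of Tph2, Pax2 and En2 at 0.586, 0.253 and 0.14 TPM. Genes of muscle, liver, heart, skin, pancreas and germ cells summed to 5.21 ± 1.21 CPM over 15 genes, led by Acta1, Ddx4, Nppa and Apoa1 at 6.23, 1.84, 1.03 and 0.939 TPM. What part RNA of neighbouring regions has in the levels of cortical genes was not tested. Nor was it tested whether cells of the cortex itself express genes of these regional lists.

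**Figure D2:**
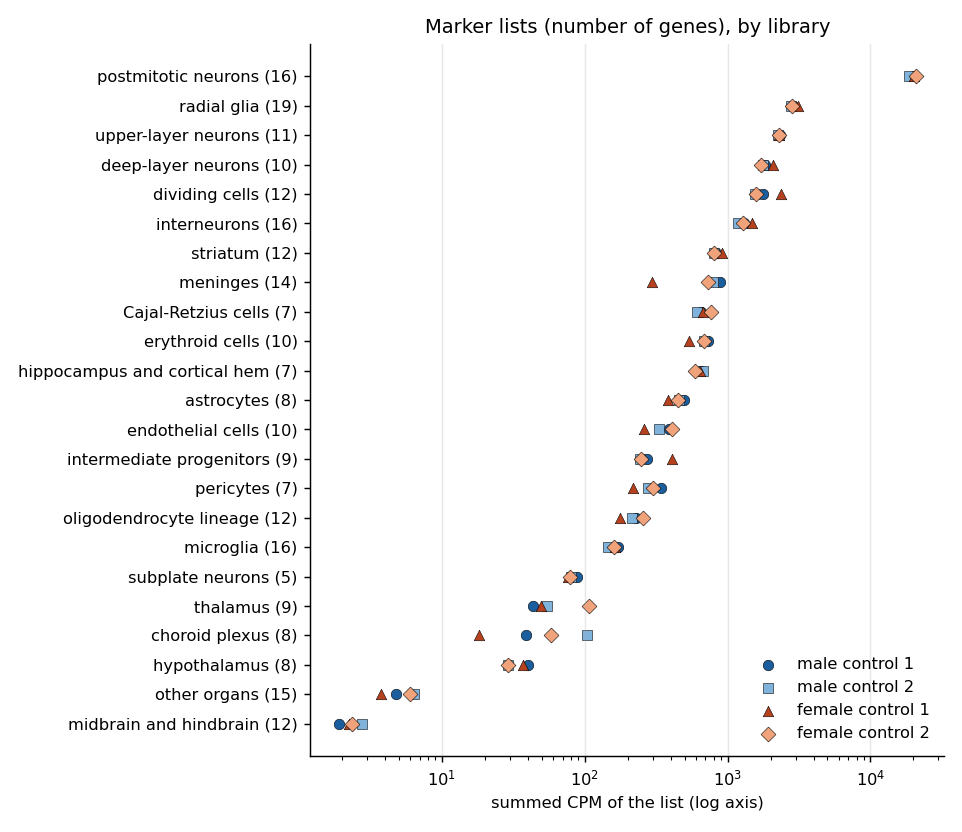
Summed CPM (log axis) of 23 marker lists, with the number of genes in brackets and 1 point per library (male control in blue, female control in orange). Neuronal, radial glial and layer lists nearly coincide across libraries, whereas meninges are low in female control replicate 1, thalamus is high in female control replicate 2 and choroid plexus is highest in male control replicate 2.

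The transcription factors of highest TPM in the lists were Sox11, Sox4, Neurod6, Zbtb18 and Thra. The 18 SOX genes summed to 6638 and 6162 CPM in male control and 8279.8 and 5463 CPM in female control libraries, and 16 of them reached 1 CPM in every library. Sox11 averaged 2421 ± 468 TPM and its close relative Sox4 1661 ± 187 TPM, far ahead of Sox2 (251 TPM) and Sox12 (229.6 TPM). Sox11 exceeded Sox2 by 9.61-fold in TPM, with a range of 8.19 to 10.8 over the libraries. Nfib and Nfix, NFI factors that time the step from progenitor to neuron and glia, were level at 454 ± 63.8 and 434 ± 44.6 TPM. Their ratio was 1.04 in TPM, with a range of 0.819 to 1.42, but 2.12 in CPM, so it depends on the exon lengths used. Nfia averaged 183 ± 28.1 TPM and Nfic 29.8 ± 3.98 TPM.

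Neurod6, a bHLH factor of postmitotic excitatory neurons, led the bHLH group with 862 and 862 TPM in the male control libraries, against 936 and 767 TPM in the female control libraries. Neurod2 averaged 478 ± 32.3 TPM, the bHLH inhibitors Id2 and Id4 286 ± 37 and 182 ± 18.7 TPM, and Bhlhe22 220.4 ± 34 TPM. Neurod6 stood 11.4-fold above Eomes, the mark of the progenitor stage before it, with a range of 9.08 to 12.5. Among zinc-finger and AT-hook factors, Zbtb18, a repressor that neurons need for migration, averaged 588 ± 52.1 TPM, with Bcl11b at 439 ± 32.9 TPM and Myt1l at 172 ± 15.5 TPM. Bcl11a was below Bcl11b in 4 of 4 libraries, with a ratio of 0.374.

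Patterning factors of the forebrain were detected for 14 of 15 genes. Tcf4, a bHLH partner protein, averaged 163 ± 19.6 TPM, Nr2f1, a nuclear receptor that sets cortical areas, 143 ± 7.5 TPM and Hes6 108 ± 11.2 TPM. Emx1 and Emx2, which mark the dorsal side, averaged 32.2 ± 6.22 and 30.3 ± 5.11 TPM. Female control replicate 1 was highest for 12 of 14 of these factors. Of the LIM homeobox genes, Lhx2, Lhx6, Isl1 and Lhx8 led with 104, 98.8, 50.5 and 31.5 TPM, and Lhx3 had no count. After Tbr1 and Eomes the next T-box genes were Tbx18 and Tbx2, at 10.2 ± 4.69 and 5.61 ± 1.06 TPM. Among POU factors Pou6f1 and Pou3f1 averaged 112 ± 7.09 and 75.4 ± 5.04 TPM, and Pou4f2, a factor of retinal ganglion cells, had no count.

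Of 33 nuclear receptors, 25 reached 1 CPM in every library. Thra, thyroid hormone receptor alpha, led at 496 ± 63.9 TPM, whereas Thrb averaged 3.41 ± 1.05 TPM. The exons of Thra overlap those of Nr1d1 on the opposite strand, and the strand setting of the counts is not given in the sources used here. Nr2f2 averaged 98.1 ± 4.42 TPM and Rxrg 59.9 ± 7.87 TPM. The oestrogen receptor Esr1 averaged 0.602 ± 0.409 TPM, while the glucocorticoid receptor Nr3c1 averaged 13 ± 2.92 TPM.

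Glutamate receptor genes were led by Grin2b, Gria1 and Grik3. Among 7 NMDA receptor genes, which encode glutamate-gated calcium channels, Grin2b had 241 and 255 TPM in the male control libraries, against 194 and 241 TPM in the female control libraries and Grin2a, the subunit that rises after birth, had 3.66 and 4.27 TPM in the male control libraries, against 2.31 and 3.82 TPM in the female control libraries. Grin2b exceeded Grin2a by 67.5-fold, with a range of 59.6 to 83.8. Grin3a averaged 37.1 ± 6.69 TPM, and the obligatory subunit Grin1 17.8 ± 4.76 TPM, with Grin2d at 14.1 ± 5.22 TPM. AMPA receptor genes, for fast excitation, were led by Gria1 (177 ± 14 TPM) and Gria2 (129 ± 34.6 TPM), before Gria4 (58.2 TPM) and Gria3 (33.6 TPM). Gria2 stood below Gria1 in 4 of 4 libraries per length, at a ratio of 0.711, but above it in CPM, at 1.83, so that order depends on the exon lengths used. All 5 kainate receptor genes were above 1 CPM in every library, led by Grik3 (166 ± 8.9 TPM), Grik5 (163 ± 19.7 TPM), Grik2 (49.4 TPM) and Grik1 (21.2 TPM). Of the metabotropic receptors Grm3 and Grm5 averaged 122 ± 37 and 99.6 ± 19.2 TPM, with Grm2 at 20.9 TPM.

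GABA-A receptor genes, for chloride channels that excite young neurons and inhibit mature ones, summed to 802 and 724 CPM in male control and 607 and 718 CPM in female control libraries, and 13 of 18 reached 1 CPM in every library. Gabrb2 averaged 89.6 ± 10.2 TPM, Gabra3 74.2 ± 10.1 TPM and Gabra2 21.5 ± 5.77 TPM. Gabrp had no count in any library. Slc12a2, the transporter that loads chloride into cells, stood below Slc12a5, which exports it, in 4 of 4 libraries per length. Slc12a2 had 39 and 41.1 TPM in male control and 38.5 and 33.1 TPM in female control libraries. Slc12a5 had 62.6 and 65.1 TPM in male control and 46.7 and 82.1 TPM in female control libraries. The ratio of Slc12a2 to Slc12a5 averaged 0.601 in TPM, with a range of 0.403 to 0.824. In CPM it averaged 0.882, with Slc12a2 the higher of the pair in female control replicate 1. Their distance, and their order in that library, therefore depend on the exon lengths used. Glra2, the fetal glycine receptor subunit, averaged 125 ± 17.5 TPM and Glrb 35.8 ± 9.3 TPM, with Glra3 and Glra4 at 1.91 and 1.16 TPM, whereas the adult subunit Glra1 averaged 0.247 ± 0.3004 TPM.

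Among modulatory receptors, Cnr1, the cannabinoid receptor of axons, was by far the highest with 264 and 269.9 TPM in the male control libraries, against 213 and 236 TPM in the female control libraries. Oprl1, the nociceptin receptor, averaged 73.8 ± 5.04 TPM, and the opioid receptors Oprm1 and Oprd1 7.85 ± 1.45 and 1.11 ± 0.578 TPM. Nicotinic receptor genes were led by Chrnb2 (55.8 ± 3.65 TPM), Chrna4 (22.8 ± 6.01 TPM), Chrna7 (16.4 ± 1.15 TPM) and Chrna3 (6.33 ± 0.834 TPM), and Chrna9, Chrnb3 and Chrnd had no count. Chrnb2 overlaps Adar on the opposite strand. Muscarinic genes were led by Chrm1 at 21.7 ± 4.25 TPM, before Chrm2, Chrm4 and Chrm3 at 9.08, 8.14 and 7.8 TPM. Adrenergic genes were led by Adra2a at 18.5 ± 3.48 TPM, before Adrb1, Adra2c and Adra1a at 11.9, 11.7 and 4.52 TPM. The dopamine receptors Drd3 and Drd4 averaged 0.969 and 0.581 TPM, below Drd1 and Drd2. Serotonin receptor genes were low but 9 of 14 reached 1 CPM in every library, led by Htr3a (17.2 ± 2.99 TPM), Htr7 (12.1 ± 2.39 TPM), Htr2a (10.04 ± 1.21 TPM) and Htr5a (8.32 ± 1.99 TPM). Their sums were 68.5 and 68.2 CPM in male control and 48 and 70.2 CPM in female control libraries, and female control replicate 1 was lowest for 11 of 12 genes.

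**Figure D3:**
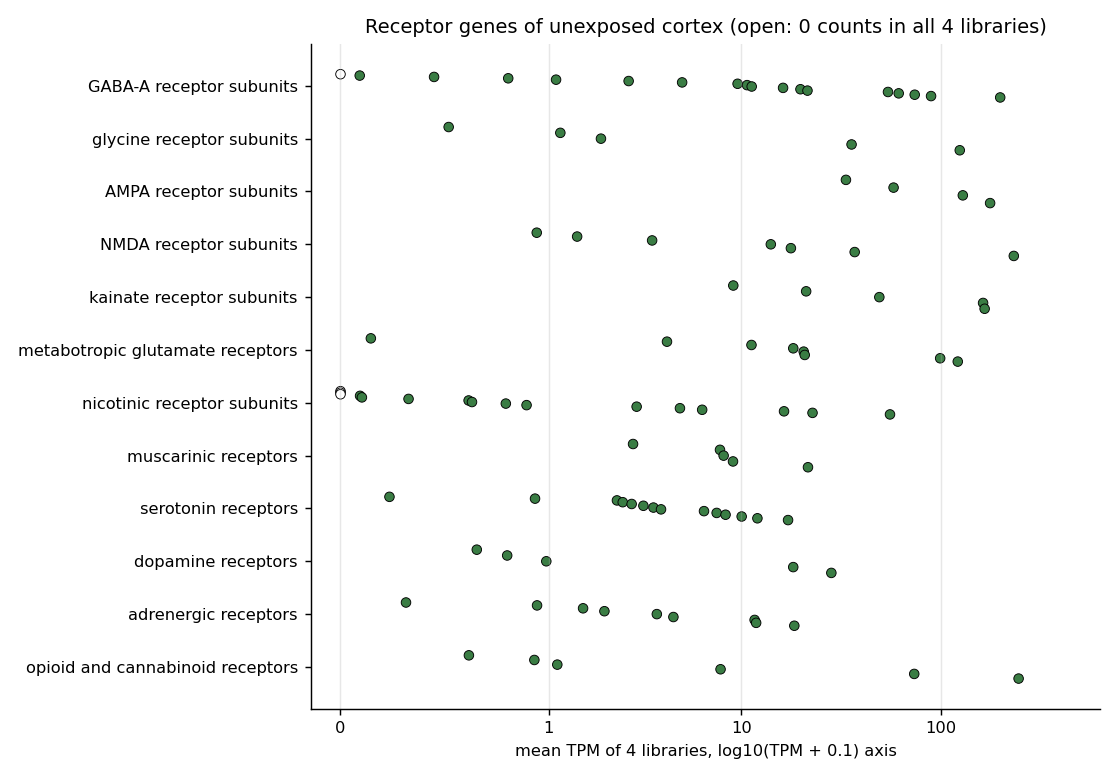
Mean TPM over the 4 libraries of receptor genes in 12 families, on a log10(TPM + 0.1) axis, with 1 point per gene and genes without a count drawn open at 0. The points furthest right are Cnr1 of the opioid and cannabinoid family and Grin2b of the NMDA family, and nicotinic and GABA-A families run down to genes with no count.

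Vesicular transporters and growth factor receptors completed the signalling genes. Slc17a6, a vesicular glutamate transporter, exceeded Slc17a7, its relative that takes over in the mature cortex, in 4 of 4 libraries at a TPM ratio of 1.45 (range 1.32 to 1.74). The GABA transporter Slc6a11 averaged 54.3 ± 13.3 TPM, and the vesicular GABA transporter Slc32a1 74.1 ± 7.24 TPM. Igf1r, the receptor of insulin-like growth factors, averaged 112 ± 5.002 TPM, the neuregulin receptor Erbb4 81 ± 6.63 TPM, Igf2r 79.6 ± 5.77 TPM and the insulin receptor Insr 75.8 ± 2.22 TPM. Fgfr1 exceeded Fgfr3 by 2.55-fold in TPM, with a range of 2.28 to 2.97. Of the neurotrophin receptors, Sort1, Ntrk2, Ntrk3 and Ngfr averaged 156, 85.4, 69 and 15.9 TPM. The reelin pathway was present throughout, with the receptors Lrp8 and Vldlr at 179 ± 6.42 and 71 ± 9.38 TPM and their adaptor Dab1 at 157 ± 6.76 TPM, and the chemokine receptor Cxcr4, which guides interneurons, at 98.3 ± 6.21 TPM. Immediate early genes, which mark recent activity or stress, were led by Jun: it averaged 75.4 ± 7.34 TPM, Ier2 19.98 ± 3.25 TPM, Egr1 8.62 ± 2.27 TPM, Junb 7.75 ± 1.9 TPM and Fos 2.39 ± 0.928 TPM.

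Of 16 genes of alcohol and aldehyde metabolism, 9 reached 1 CPM in every library. Cat, catalase, averaged 123 ± 7.31 TPM and Adh5, the alcohol dehydrogenase that handles formaldehyde, had 80.9 and 88.6 TPM in the male control libraries, against 93.6 and 85.8 TPM in the female control libraries. Aldh1b1 and Aldh2, mitochondrial aldehyde dehydrogenases, averaged 61.5 ± 6.8 and 45.9 ± 4.82 TPM. Aldh2 stood below Adh5 at a ratio of 0.525 (range 0.464 to 0.607). Adh1, the class of alcohol dehydrogenase that clears ethanol in liver, had 0.25 and 0.225 CPM in male control and 0 and 0.333 CPM in female control libraries, with no count in female control replicate 1. Adh6a and Cyp2e1, the ethanol-oxidising cytochrome P450, had no count in any library. Aldh1a2, which makes retinoic acid in the meninges, had 11.1 and 10.5 CPM in male control and 0.691 and 8.12 CPM in female control libraries, low in the same library as the other meningeal genes.

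For 14 pairs with counts in every library the order was tested by an exact two-sided sign-flip permutation test over the 4 libraries. In 13 pairs one gene stood above the other in 4 of 4 libraries, which gives an exact permutation p of 0.13, the smallest that 4 libraries allow (0.135 after Benjamini-Hochberg adjustment over the 14 pairs). No pair could therefore pass 0.05, and the ranges above carry the comparison. The exact permutation p was 0.75 for Nfib over Nfix. Ccnd2 exceeded Ccnd1 by 11.4-fold (range 9.995 to 13.6) and Tubb3 exceeded Vim by 15.5-fold (range 12.8 to 19.1).

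Several large gene families were mostly without counts at this depth. Over all 4 libraries, 3 counts correspond to 0.0288 CPM. Of 1094 olfactory receptor genes, 964 (88.1%) had no count, and Olfr1564 alone reached 1 CPM in every library. Likewise no count was found for 286 of 325 vomeronasal receptors, 30 of 35 bitter taste receptors, 36 of 42 beta-defensins, 23 of 25 prolactin-family genes and 5 of 5 caseins, against 19.7% of all protein-coding genes. Of 39 Hox genes, which pattern the body behind the midbrain, 30 had no count, and the highest, Hoxd8, averaged 0.215 CPM. Keratin genes were more mixed, with 22 of 53 at no count and Krt1 highest at a mean of 5.43 CPM. Other members of the lists without a count were Atoh1, Neurog3, Rax, Hoxa2, Hoxa3, Hoxb4, Hoxb5, Krt5 and Prss1, which serve the hindbrain, endocrine pancreas, hypothalamus and eye, posterior body, skin and exocrine pancreas. A gene without counts here is below what this depth can show, and its absence is not shown.

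Promoter windows of 2 abundant neuronal genes and of 2 genes without counts are printed to show what stood upstream of both ends of the range. They run from 250 bases before to 50 bases after the annotated start, come from RefSeq on GRCm38.p6, and have each CG dinucleotide in capitals.
Tubb3 (chr8:123411303-123411602, plus strand): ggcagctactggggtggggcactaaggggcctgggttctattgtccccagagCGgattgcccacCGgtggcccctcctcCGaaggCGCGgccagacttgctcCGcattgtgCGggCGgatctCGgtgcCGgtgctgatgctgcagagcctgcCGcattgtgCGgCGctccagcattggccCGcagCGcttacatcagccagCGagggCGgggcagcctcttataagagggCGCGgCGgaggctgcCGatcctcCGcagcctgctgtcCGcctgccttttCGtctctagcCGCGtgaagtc
Sox11 (chr12:27342669-27342968, minus strand): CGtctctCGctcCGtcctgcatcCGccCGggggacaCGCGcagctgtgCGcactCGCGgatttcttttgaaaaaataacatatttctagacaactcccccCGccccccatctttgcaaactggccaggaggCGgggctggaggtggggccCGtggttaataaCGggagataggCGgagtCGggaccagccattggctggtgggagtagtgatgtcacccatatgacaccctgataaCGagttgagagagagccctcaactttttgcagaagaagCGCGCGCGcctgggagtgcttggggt
Cyp2e1 (chr7:140763569-140763868, plus strand): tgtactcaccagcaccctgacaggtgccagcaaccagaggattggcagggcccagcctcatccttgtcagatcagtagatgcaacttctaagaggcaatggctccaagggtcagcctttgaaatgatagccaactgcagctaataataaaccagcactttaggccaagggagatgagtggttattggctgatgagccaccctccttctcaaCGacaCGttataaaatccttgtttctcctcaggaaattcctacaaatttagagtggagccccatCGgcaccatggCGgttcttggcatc
Krt5 (chr15:101712856-101713155, minus strand): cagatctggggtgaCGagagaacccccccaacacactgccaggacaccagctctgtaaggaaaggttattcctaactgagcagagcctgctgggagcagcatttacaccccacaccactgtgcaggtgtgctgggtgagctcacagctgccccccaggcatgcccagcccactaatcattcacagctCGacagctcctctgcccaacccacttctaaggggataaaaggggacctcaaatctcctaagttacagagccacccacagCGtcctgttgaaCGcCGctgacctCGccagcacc
The Tubb3 window holds 26 CG dinucleotides and that of Sox11 21, whereas those of Cyp2e1 and Krt5 hold 4 and 6. Over all 32851 windows of the table the median was 7, with quartiles of 3 and 20. The motif TATAAA, searched on both strands, occurs once in the Cyp2e1 window and in none of the other windows printed, and in 13.6% of all windows. No check of promoter content by expression level is given, because 75.6% of protein-coding genes had a window, under the 80% such a check needs.

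The 2 replicates of each sex did not resemble each other equally. Over 10019 genes of at least 10 CPM, the log2 ratio between replicates had an SD of 0.21 in male control and 0.33 in female control, on TMM-scaled CPM. More than 2-fold apart were 12 genes between the male control replicates and 129 between the female control replicates. Across genes, Spearman's correlation was 0.992 in male control and 0.976 in female control. Neither pair agreed within counting noise, and all 4 were counted as separate libraries. The biological coefficient of variation was 0.0875 in male control and 0.153 in female control, with 0.0494 to 0.0850 in the other 6 groups of the series, which also hold 2 libraries each. These are values of 1 pair per group, and their difference was not tested. Within the male control pair 2 protein-coding genes were over 2-fold apart, and within the female control pair 124.

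**Figure D4:**
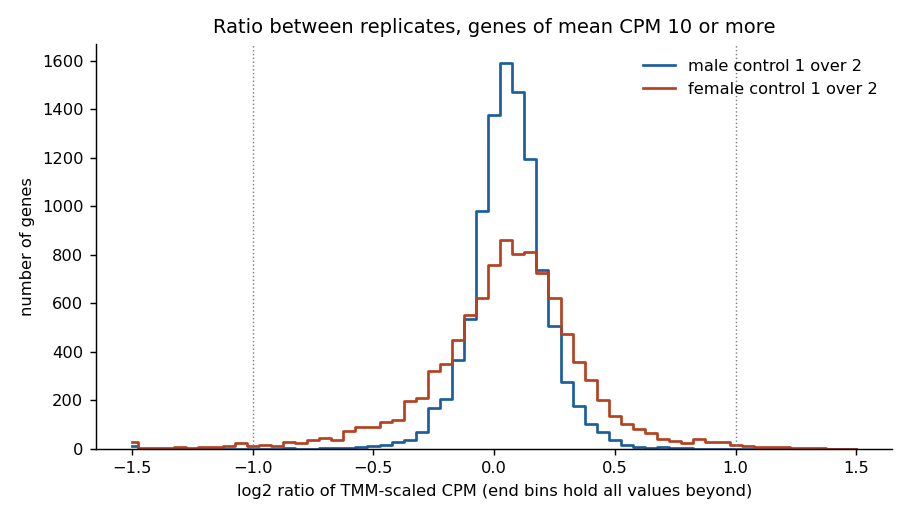
Number of genes by log2 ratio of TMM-scaled CPM between replicates 1 and 2, for male control (blue) and female control (orange), with dotted lines at a 2-fold difference. The female control curve is wider and lower than the male control curve, with SDs of 0.33 and 0.21 for female and male control.

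The steadiest abundant genes over the 4 libraries were Golgb1, a Golgi tether, Kmt5b, a histone methyltransferase, and Snrnp70, a spliceosome protein, whose highest and lowest libraries differed by 1.01-, 1.02- and 1.02-fold. They were followed by Sh3bp5, Dnajc13, Usp24, Frrs1l, Ncoa1, Foxj3 and Rpl21, all within 1.03-fold. Over the 10019 genes the median ratio of highest to lowest library was 1.26, and 282 genes (2.81%) exceeded 2-fold. Female control replicate 1 was the lowest library for 143 and the highest for 110 of those 282.

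Leaving out Xist, the Y-linked genes and predicted genes, the 15 most variable genes of at least 10 TMM-scaled CPM were of several kinds. In male control replicate 2, Mir6236 had 1091 CPM, against 16.6 CPM in male control replicate 1 and 0.3004 and 0.303 CPM in the female control libraries. mt-Rnr2, the large mitochondrial ribosomal RNA, had 342 and 7426 CPM in male control and 77.6 and 9.18 CPM in female control libraries. mt-Rnr1, the small one, had 248 and 6036 CPM in male control and 12.1 and 8.66 CPM in female control libraries. Lars2, a mitochondrial leucyl-tRNA synthetase gene, moved with them at 86.9 and 2654 CPM in male control and 20.1 and 21.8 CPM in female control libraries. The choroid plexus gene Ttr, given above, was also among them. Others were low in female control replicate 1: Ptgds, a prostaglandin synthase of the meninges, had 54.4 and 45.8 CPM in the male control libraries, against 1.44 and 24 CPM in the female control libraries. Cldn11, a tight-junction protein of the arachnoid barrier, had 24.9 and 17.7 CPM in male control and 1.32 and 10.4 CPM in female control libraries, and Fmod, Lox, Lepr, Col6a1, Col6a3, F13a1 and Slc6a13 were also lowest in that library, with highest over lowest from 7.68- to 13.9-fold. The remaining gene of these 15 was Bc1, given with the sexes.

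Female control replicate 1 had few meningeal and vascular counts and many progenitor counts. Over the 15809 genes of at least 1 CPM it was the highest library for 36.9% and the lowest for 27.0%. For meninges it was lowest for 13 of 13 genes, for endothelial cells for 8 of 9 and for GABA-A receptor subunits for 11 of 14. It was highest for 12 of 12 genes of dividing cells, 9 of 9 of intermediate progenitors, 13 of 19 of radial glia and 10 of 16 of interneurons. For postmitotic neurons it was highest for 8 of 16 and lowest for 6 of 16, with both directions represented. The part of these shifts in other results was not tested, beyond the values without that library given beside them.

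**Figure D5:**
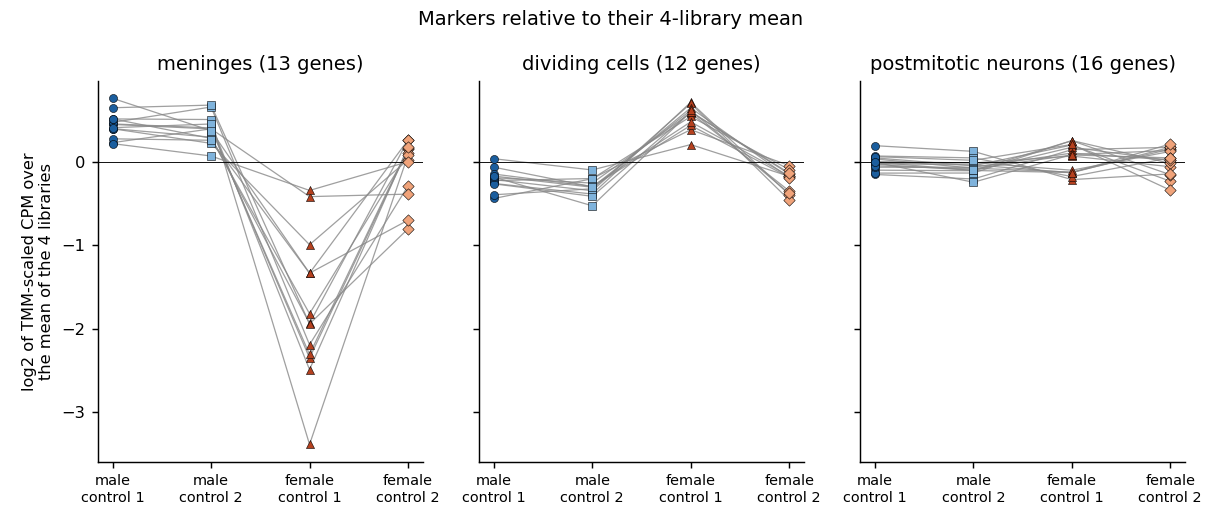
Log2 of TMM-scaled CPM over the mean of the 4 libraries, with 1 line per gene, for genes of meninges, dividing cells and postmitotic neurons with a mean of at least 1 CPM. All 13 meningeal genes are lowest and all 12 genes of dividing cells highest in female control replicate 1, while the 16 neuronal genes stay near 0.

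Male and female control were compared gene by gene with edgeR's quasi-likelihood test on the 4 libraries, with Benjamini-Hochberg adjustment over 19680 genes. Of these, 6 genes passed as higher in male control (0.0305% of those tested) and 1 as lower (0.00508%). The 4 Y-linked genes among the 6 encode housekeeping regulators that also have X-linked partners. Ddx3y, an RNA helicase, had 47.8 and 43.1 CPM in the male control libraries, against 0 and 0 CPM in the female control libraries. Eif2s3y, a translation initiation factor, and Uty, a histone demethylase relative, also had no count in either female control library, and their levels in male control were 45.3 and 39.2 CPM and 39.2 and 40.7 CPM. Against a floor of 3 counts over both female control libraries, Ddx3y was at least 1008-fold, Eif2s3y at least 938-fold and Uty at least 881-fold higher in male control. Kdm5d, a histone demethylase, had 61.2 and 53.9 CPM in the male control libraries, against 0 and 0.0606 CPM in the female control libraries. Xist, the RNA that coats the inactive X chromosome, was the gene that was lower, with 0.1002 and 0.45 CPM in the male control libraries, against 501 and 621 CPM in the female control libraries and a male minus female log2 fold change of -11.02 ± 0.31 (SE, edgeR adjusted p 9.4e-06).

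The remaining 2 genes that passed are autosomal. Bc1, a short cytoplasmic RNA of neurons made by RNA polymerase III, had 37.4 and 39.3 CPM in the male control libraries, against 0.631 and 1.21 CPM in the female control libraries. The log2 fold change was 5.38 ± 0.27 (SE), with an edgeR adjusted p of 0.000154, and both male control libraries lay above both female control libraries. Gm10800, a predicted gene on chromosome 2, had 9.32 and 11.9 CPM in the male control libraries, against 0.12 and 0.363 CPM in the female control libraries, a log2 fold change of 5.43 ± 0.43 (SE) and an edgeR adjusted p of 0.00483. Depth went with sex in these libraries, and the 2 cannot be told apart. The mitochondrial ribosomal RNAs and Mir6236 were also higher in both male control libraries, at 248 and 6036 CPM for mt-Rnr1 in male control against 12.1 and 8.66 CPM in female control libraries, and their part in the Bc1 and Gm10800 differences was not tested. Of the X-linked partners, Ddx3x had 480.1 and 439 CPM in male control and 569.9 and 437 CPM in female control libraries, with the sexes overlapping. Kdm5c had 159 and 142 CPM in male control and 241 and 231 CPM in female control libraries, Eif2s3x 136 and 113 CPM in male control and 229.6 and 199 CPM in female control libraries and Kdm6a 56.4 and 52 CPM in male control and 82.3 and 71.9 CPM in female control libraries. None of these passed, and for Kdm5c, Eif2s3x and Kdm6a the edgeR adjusted p ranged from 0.347 to 0.488. In all, 7 genes passed, or 0.0356% of those tested. Of the 455 tested genes that belong to a list, 5 passed, and these were Xist and the 4 Y-linked genes. At an unadjusted p under 0.05 stood 2009 genes. The number called rested on single libraries: without female control replicate 1 it was 727 higher and 781 lower, and without female control replicate 2 it was 838 higher and 1221 lower, where the lone female control library is assumed to vary like the male control pair. Leaving out male control replicate 1 gave 67 higher and 15 lower, and leaving out male control replicate 2 gave 27 higher and 2 lower.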

How the data were processed

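The authors deposited 1 table of raw read counts per library, made per the submitters' processing notes with Trimmomatic, STAR and featureCounts on GRCm39 (mm39). The sources used here do not give versions, the annotation release, the strand setting or how multi-mapping reads were handled. Each table holds 55359 gene IDs. Symbols, classes and exon lengths were matched by ID for 52083 of them from GENCODE M21 on GRCm38, another build, so no coordinates of counts are given.

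CPM and TPM were computed from the deposited counts, TPM with the union of a gene's exons and protein-coding genes summing to 1000000. Replicate agreement used TMM-scaled CPM. Male and female control were tested with edgeR 4.0.16 (filterByExpr, TMM, glmQLFit, glmQLFTest, two-sided, 4 libraries, 2 residual degrees of freedom) and a Benjamini-Hochberg adjusted p under 0.05, in R 4.3.3, after a test on simulated data. DESeq2 1.42.0, no filter, a replicate block and other alternatives were tried. Promoter windows were read from RefSeq.

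The libraries, the lists and the pairs were chosen with earlier results of these data known. Genes were named by rule: the 20 of highest mean CPM among IDs with a symbol, and the 20 protein-coding genes of highest mean TPM. From each list came the 4 of highest TPM and all without counts. All pair members, all genes that passed between the sexes, and the 15 most and 10 least variable genes were also named. Some of these genes, and 3 of the pairs, are not reported here, and the pair tests were adjusted over the pairs that remain. Other members named were chosen after their values were seen. Intervals and floors cover counting error only.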

Additional observations from a re-analysis of the deposited data

Results flagged for a closer look

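Taking the 4 unexposed libraries as 1 group, the summed CPM of 52 lists was searched for a library far from the other 3. In 2 lists the lowest library lay further off than Dixon's critical value of 0.83 of the whole range. Chance alone would give this in about 1 in 20 groups, or 2.6 of 52 lists, and the number found is no more than that. The lists share the same 4 libraries and some genes and are not independent. This count therefore cannot decide whether chance gave the 2. Metabotropic glutamate receptor genes summed to 401 and 395 CPM in male control and 277 and 419 CPM in female control libraries, with female control replicate 1 lowest. The gap was 0.834 of the range in CPM, and 0.807, under the critical value, with TMM scaling, an alternative added after seeing the data. Serotonin receptor genes summed to 68.5 and 68.2 CPM in male control and 48 and 70.2 CPM in female control libraries, with the same library lowest and a gap of 0.91 of the range in CPM and 0.837 with TMM scaling. The meningeal list, though low in that library too, did not pass the criterion because the other 3 libraries were themselves spread.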

How the results depend on the processing

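The number of genes that differ between male and female control depended strongly on the processing. Against 6 higher and 1 lower with edgeR, DESeq2 called 34 higher and 14 lower, an unfiltered fit 235 and 131, a fit with the replicate number as a block 17 and 5, a single fit of the 8 groups over 16 libraries 115 and 114, and protein-coding genes alone 5 and 0, where Xist is not among the genes tested. DESeq2 size factors in edgeR left 6 and 1. Leaving out 1 library at a time gave 27 to 838 higher and 2 to 1221 lower. The 7 genes named kept their direction and an adjusted p under 0.05 wherever they were tested. The cause of the spread in counts was not tested.

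Whether replicate numbers pair the sexes is not stated in the labels. Across 10019 genes the difference between replicates 1 and 2 in male control correlated with that in female control at a Pearson r of 0.0504. That value cannot decide it, because each sex gives a single difference. The block gave the 17 and 5 calls above. Detected genes numbered 14454 to 17761 under the other thresholds and when thinned, and 14541 to 15021 without 1 library. Genes without a count numbered 23057 when thinned and 23294 to 23805 without 1 library. Summed levels of all 52 lists moved by less than 1 SD with TMM or DESeq2 scaling, and stood at 0.704 to 1.22 times the reported mean without 1 library, while scaling to the protein-coding total gave 1.06 to 1.09 times, more than 1 SD in 18 lists. Over genes of at least 1 CPM, the SD of log2 ratios between replicates was 0.319 in male control and 0.400 in female control. Over protein-coding genes it was 0.161 in male control and 0.330 in female control. Gria2 over Gria1 was 0.87 on the log2 scale with CPM in place of TPM, and Nfib over Nfix ranged from -0.0903 to 0.175 over the fits that omit 1 library, so its order changes with the library left out. Adh5 over Adh1 gave no ratio because 1 library had no Adh1 count.

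With 2 libraries per sex, and with fewer counts in the male control libraries, depth limits what can be said of genes near the floor. Levels between genes depend on exon lengths from another annotation release.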
